A study of Homo sapiens with 8 samples.

Results

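SERPINA1 and the 3 fibrinogen genes FGA, FGB and FGG were examined in H3K27ac peak lists of A549 cells, an established human lung adenocarcinoma line that the study's title calls NRF2-activated, after CEBPB knockdown. The members were chosen by position on hg19, by a rule that uses no measured value, although the genes were picked with earlier results of these data known. They are all peaks overlapping a window of 450 kb on chromosome 14 (94.70 to 95.15 Mb) that holds the SERPINA cluster, with SERPINA1 at 94.843 to 94.857 Mb, and a window of 200 kb on chromosome 4 (155.40 to 155.60 Mb), with FGB, FGA and FGG within 155.484 to 155.534 Mb. These windows held 78 of the 186774 peaks on chromosomes 1 to 22 and X. After peaks of different libraries that overlapped by 1 bp or more were joined, they held 27 of 60669 regions, 15 in the SERPINA window and 12 in the fibrinogen window.

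There were 4 immunoprecipitated libraries: 1 from cells transfected with CEBPB siRNA-1, 1 from cells transfected with CEBPB siRNA-2, and 2 from cells transfected with a control siRNA. The medium was replaced 24 h after transfection and the cells were harvested after another 24 h. All 4 libraries came from the same line, and the labels name no cytokine treatment. The siRNAs served as the 2 samples of the knockdown, so the spread between these libraries includes any difference between the siRNAs. Whether the controls were grown as separate cultures is not in the labels, so the exact permutation p-values measure only the spread between these libraries. With 2 libraries against 2, such a test cannot give a p below 0.333. The peak lists carry no read counts. Their depth is unknown, and a place without a peak is a place without a call, not a place without acetylation. The level of CEBPB after knockdown was not measured by these files, and the identity of the line was not checked against marker genes, since no hg19 annotation was used here.

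H3K27ac is an acetylation of histone H3 that marks active promoters and enhancers. The acute-phase response is the change in plasma proteins made by the liver during inflammation, driven mainly by interleukin-6 through STAT3 and by C/EBP factors; CEBPB was first described as a nuclear factor for interleukin-6 expression. SERPINA1 encodes alpha-1 antitrypsin, the inhibitor of neutrophil elastase that protects the lung. FGA, FGB and FGG encode the alpha, beta and gamma chains of fibrinogen, the precursor of the fibrin clot. These genes are best known from hepatocytes, and lung epithelial cells can make their products too.

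Sequences before the starts of the members are shown because the siRNA target binds DNA at sites of a known form and because the outer ends of the fibrinogen genes lay under acetylated regions. Each is the 250 bases before a RefSeq gene start, 5′ to 3′ on the strand of the gene, from RefSeq on GRCh38.p14. That build differs from the hg19 of the peaks, so these coordinates cannot be set directly against those of the peaks. Only distances within a locus can, if they are the same in both builds. Capitals mark matches to a C/EBP motif, TTGCNNAA, searched on both strands. FGB, second of 2 overlapping RefSeq entries, chr4:154562761-154563010, plus strand; FGA, chr4:154590743-154590992, minus strand; FGG, chr4:154612657-154612906, minus strand; SERPINA1, second of 2 entries, chr14:94388603-94388852, minus strand.
FGB: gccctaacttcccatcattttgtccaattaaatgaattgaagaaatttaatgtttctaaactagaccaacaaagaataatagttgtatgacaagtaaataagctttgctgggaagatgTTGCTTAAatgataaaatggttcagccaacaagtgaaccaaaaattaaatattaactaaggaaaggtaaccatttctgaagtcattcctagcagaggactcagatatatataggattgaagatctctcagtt
FGA: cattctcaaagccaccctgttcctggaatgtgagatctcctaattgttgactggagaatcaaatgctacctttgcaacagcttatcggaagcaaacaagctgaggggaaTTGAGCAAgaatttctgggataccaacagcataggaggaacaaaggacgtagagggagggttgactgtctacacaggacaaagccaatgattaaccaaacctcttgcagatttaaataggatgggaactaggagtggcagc
FGG: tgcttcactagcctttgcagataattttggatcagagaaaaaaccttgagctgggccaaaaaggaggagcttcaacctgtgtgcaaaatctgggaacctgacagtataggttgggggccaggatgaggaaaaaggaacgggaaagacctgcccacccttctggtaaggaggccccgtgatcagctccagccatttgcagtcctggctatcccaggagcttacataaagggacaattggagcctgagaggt
SERPINA1: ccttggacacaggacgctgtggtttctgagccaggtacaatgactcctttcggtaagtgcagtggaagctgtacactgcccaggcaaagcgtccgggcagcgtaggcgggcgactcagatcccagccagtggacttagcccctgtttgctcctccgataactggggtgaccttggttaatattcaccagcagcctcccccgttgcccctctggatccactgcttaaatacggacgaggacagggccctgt

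The FGB sequence held 1 match, from 132 to 125 bases before the printed start, and the other FGB entry held the same match. The FGA sequence held 1 match, on the opposite strand, from 141 to 134 bases before its start. Neither the FGG sequence nor the 2 SERPINA1 entries held one. Of all 35116 RefSeq promoter entries, 9.05% had at least 1 match in the same 250 bases. An AP-1 motif, TGANTCA, was in none of the members' sequences and in 6.57% of all entries. The NRF2 motif TGANNNNGC was in 35.2% of all entries and in the other SERPINA1 entry, which is not printed. No match of one motif overlapped a match of another. In a list of 21 further genes whose proteins rise in the acute phase, 12 had an entry, and 3 of these (HPX, SAA4 and LCN2) held the C/EBP motif. In a list of 6 genes whose proteins fall, 5 had an entry and 4 (ALB, TF, AHSG and RBP4) held it. In a list of 9 regulators, 6 had an entry and 0 held it. By symbol, 11% of all genes with an entry held it. These lists are short, and a match describes letters only.

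Less of the fibrinogen gene span was called as acetylated with either CEBPB siRNA. Called length, the number of bases under peaks, was 9.75 kb of the 50 kb with siRNA-1 and 7.95 kb of it with siRNA-2, against 18.6 kb in control 1 and 18.4 kb in control 2. Both knockdown libraries thus lay far below both controls, which were nearly equal. The means were 8846 ± 1274 bp after knockdown and 18483.5 ± 133.6 bp in controls (SD, n = 2 each), a 2.09-fold shorter called length. This difference was larger than the spread between the libraries of either group. The exact permutation test gave a two-sided p = 0.333, the smallest possible and its value for any groups of 2 that do not overlap. As a share of everything called in the same list, the span made up 0.0138% in the siRNA-1 library and 0.0129% in the siRNA-2 library, against 0.0274% in control 1 and 0.0296% in control 2. The shares did not overlap either, although the lists differ in total length, with 70.4 Mb and 61.7 Mb after knockdown against 67.9 Mb and 62.1 Mb in controls. How often spans of 50 kb separate in this way was not counted. Of 8146 tiles of 200 kb along the chromosomes, 27.9% had a shorter called length in both knockdown libraries. These are bulk libraries, in which fewer cells with the mark and less of the mark per cell cannot be told apart.

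In the whole fibrinogen window called length was likewise shorter with either siRNA, in more and shorter peaks. The siRNA-1 library had 13 peaks covering 20.8 kb and the siRNA-2 library 18 peaks covering 17.4 kb, against 8 peaks covering 29.2 kb in control 1 and 10 peaks covering 28.5 kb in control 2. The longest peak was 5289 bp with siRNA-1 and 5056 bp with siRNA-2, against 11300 bp in control 1 and 6790 bp in control 2. Neither peak number nor called length nor longest peak overlapped between the groups (exact permutation test, two-sided p = 0.333 for each). For the longest peak, no share over all chromosomes was counted. Peak number averaged 15.5 ± 3.54 after knockdown and 9 ± 1.41 in controls (SD, n = 2 each). That difference, 6.5 peaks, was 9 with siRNA-1 left out and 4 with siRNA-2 left out. With gaps of 1 kb or less closed it was 0.5, with 7 and 7 peaks after knockdown against 7 and 6 in controls. Among peaks with a −log10 q of 10 or more it was 1, with 7 and 4 peaks after knockdown against 4 and 5 in controls (exact permutation test, two-sided p = 1 for each). The higher peak number thus did not hold with short gaps closed or with peaks of low −log10 q left out. The whole knockdown lists also held more peaks, 47370 (siRNA-1) and 48216 (siRNA-2) against 45537 (control 1) and 45651 (control 2). Median peak widths of the whole lists overlapped between the groups, with 758 and 670 bp after knockdown against 798 and 712 bp in controls. Of 8146 tiles of 200 kb along the chromosomes with a call in every list, 27.9% had a shorter called length in both knockdown libraries than in both controls, and 19.3% had more peaks. Both together held in 1.24% of the tiles, a combination picked after it was seen at the fibrinogen genes. The log2 ratio of called length, knockdown over control, was -0.60 in the window against a median of 0.039 over the tiles, at percentile 13.7.

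**Figure D1:**
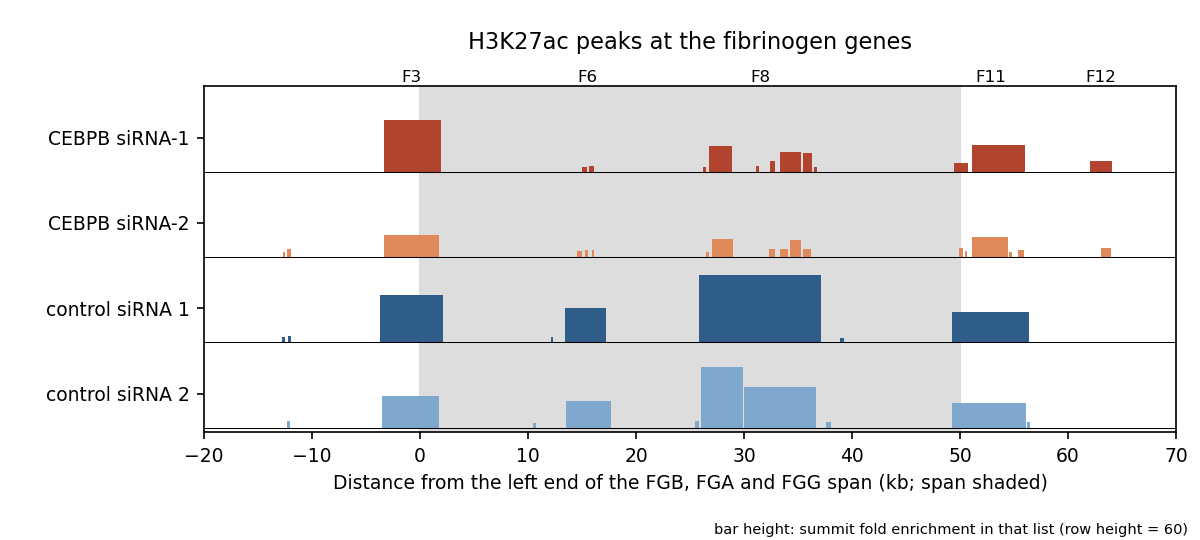
H3K27ac peaks at FGB, FGA and FGG in the 4 libraries, by distance in kb from the left end of the span of these genes (grey); each bar is 1 peak and its height is its summit fold enrichment in its own list. With either siRNA, F6 is a few short, low peaks, and F8 is several peaks shorter and lower than those of the controls. F3 at the left end is of similar width in all, and F12 on the right is called only with the siRNAs.

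The shorter calls lay more inside the span than at its ends. In RefSeq's order FGB comes first, read rightward, then FGA and FGG, both read leftward, so the ends of the span are the start of FGB on the left and the start of FGG on the right, if its bounds are the outer ends of the genes. The start of FGA lies inside and was not placed on the peaks by an hg19 annotation. By its distance from the start of FGB on GRCh38, it falls in the region called F8 below, 25.9 kb to 37.2 kb from the left end. This holds if that spacing is the same in hg19. The shorter calls inside would then cover a gene start too. In the fibrinogen window 4 regions were called in every library. They are called F3, F6, F8 and F11 here, by their place among the 12 regions from left to right.

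F3 covers the left end of the span, where FGB starts (chromosome 4, 155480321 to 155486141, hg19). It was 1 unbroken peak in every library, of 5289 bp with siRNA-1 and 5056 bp with siRNA-2, against 5821 bp in control 1 and 5237 bp in control 2. The groups overlapped in length, with a difference of -356.5 bp (exact permutation test, two-sided p = 0.667), though not as a share of each list (p = 0.333 by the same exact test). The difference was -64.5 bp without control 1 and -648.5 bp without control 2. Of the bases called there in both controls, 96.1% were also called with both siRNAs. Its summit lay 2.2 kb to 2.7 kb left of the span in all 4 libraries.

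F6 lies wholly inside the span, 13.4 kb to 17.7 kb from its left end (chromosome 4, 155497424 to 155501671). It was 2 peaks of 416 and 515 bp with siRNA-1 and 3 peaks of 228 to 383 bp with siRNA-2, none with a summit fold enrichment, as the authors' lists give it, above 5.1. It was a single peak of 3777 bp in control 1 and of 4193 bp in control 2, with fold enrichments of 24.3 and 19. Called length came to 931 bp (siRNA-1) and 848 bp (siRNA-2), so that the knockdown mean was 889.5 ± 58.69 bp and the control mean 3985 ± 294.2 bp (SD, n = 2 each). This is a 4.48-fold shorter length with no overlap (exact permutation test, two-sided p = 0.333, the smallest possible). With a −log10 q of 10 or more required, 0 bp were called there with either siRNA and the controls kept all of their length. The best summits also stood apart, at 16.1 kb and 16 kb from the left end after knockdown and at 14.2 kb and 14.3 kb in controls. Of the bases called in both controls, 9.54% were called with both siRNAs and 61.7% with neither.

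F8 was the longest region of either window, 25.9 kb to 37.2 kb from the left end of the span (chromosome 4, 155509852 to 155521151). With siRNA-1 it was called as 7 peaks of 239 to 2178 bp and with siRNA-2 as 6 peaks of 216 to 1902 bp. In control 1 it was 1 peak of 11300 bp, and in control 2 it was 2 peaks of 3880 and 6695 bp. Called length was 6261 bp with siRNA-1 and 5236 bp with siRNA-2, against 11300 bp in control 1 and 10575 bp in control 2. The mean was 1.90-fold shorter after knockdown, 5748.5 ± 724.8 bp against 10937.5 ± 512.7 bp in controls (SD, n = 2 each; exact permutation test, two-sided p = 0.333, the smallest possible). The highest summit lay within 791 bp over the 4 libraries, 28.3 kb and 27.6 kb from the left end after knockdown and 28.4 kb in both controls. Of the bases called in both controls, 45.5% were called with both siRNAs and 37.5% with neither.

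F11 covers the right end, where FGG starts (chromosome 4, 155533232 to 155540459). Its called length was 6199 bp in 2 peaks with siRNA-1 and 4756 bp in 5 peaks with siRNA-2, against 7138 bp in 1 peak in control 1 and 7028 bp in 2 peaks in control 2. The mean difference of -1605.5 bp (-22.7%) was without overlap between the groups (exact permutation test, two-sided p = 0.333), but it was -884 bp without siRNA-2. It was -826.5 bp with gaps of 1 kb or less closed and -2845 bp among peaks with a −log10 q of 10 or more, without overlap in either. Of the bases called there in both controls, 68.6% were called with both siRNAs and 10.7% with neither.

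Thus 3 of these 4 regions were shorter in both knockdown libraries than in both controls and 0 were longer. Over all 24133 regions called in every library, 25.6% were shorter in this way and 26.9% longer, and the median log2 length ratio was 0.014. Set in that distribution, F6 lay at percentile 0.564 with a log2 ratio of -2.16, F8 at 5.71 with -0.93, F11 at 18.8 with -0.37 and F3 at 37.7 with -0.10. Fewer than 1% of regions called in every library had a lower ratio than F6. F3 and F11 lay within the bulk.

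**Figure D2:**
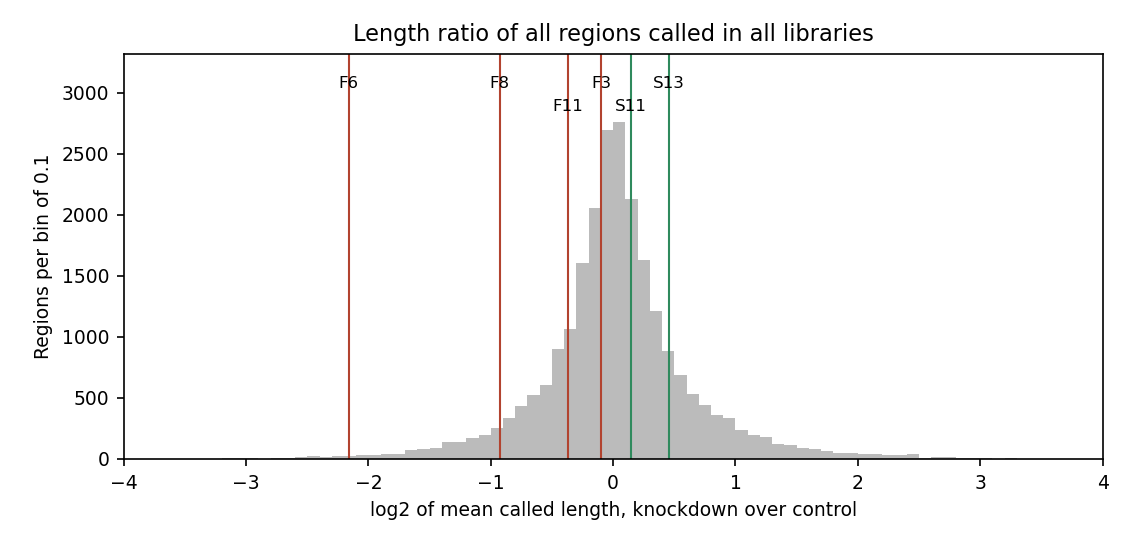
Log2 ratio of mean called length, knockdown over control, of the 24133 regions called in every library (grey histogram, bins of 0.1), with the 4 fibrinogen regions in red and the 2 SERPINA regions in green. F6 at -2.16 stands in the left tail and F8 at -0.93 on its shoulder, while S11 and S13 are right of the centre.

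Fold enrichments depend on the list they come from, so the regions were also ranked against each other inside each list. Set against F3, the summit fold enrichment of F8 was 0.492 in the siRNA-1 list and 0.84 in the siRNA-2 list, against 1.41 in control 1 and 1.89 in control 2. F8 was also the highest of the 4 regions by −log10 q in both controls, and came after F3 and F11 in both knockdown lists. The ratio of F6 to F3 was 0.112 in the siRNA-1 list and 0.331 in the siRNA-2 list, against 0.725 in control 1 and 0.838 in control 2, again without overlap. F3 itself varied, with fold enrichments of 36.4 (siRNA-1), 15.4 (siRNA-2), 33.5 (control 1) and 22.6 (control 2). The ratios therefore carry the spread of F3 too. The ratio of F11 to F3 overlapped between the groups, with 0.525 and 0.906 after knockdown against 0.628 and 0.755 in controls. Such a separation of the groups is common: over all chromosomes the right-over-left ratio was lower in both knockdown lists for 27.2% of neighbouring pairs of regions called in every library, as F3 and F6 are, and for 27.8% of pairs next but one to each other, as F3 and F8 are. The ratios are therefore given as a description of these regions.

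**Figure D3:**
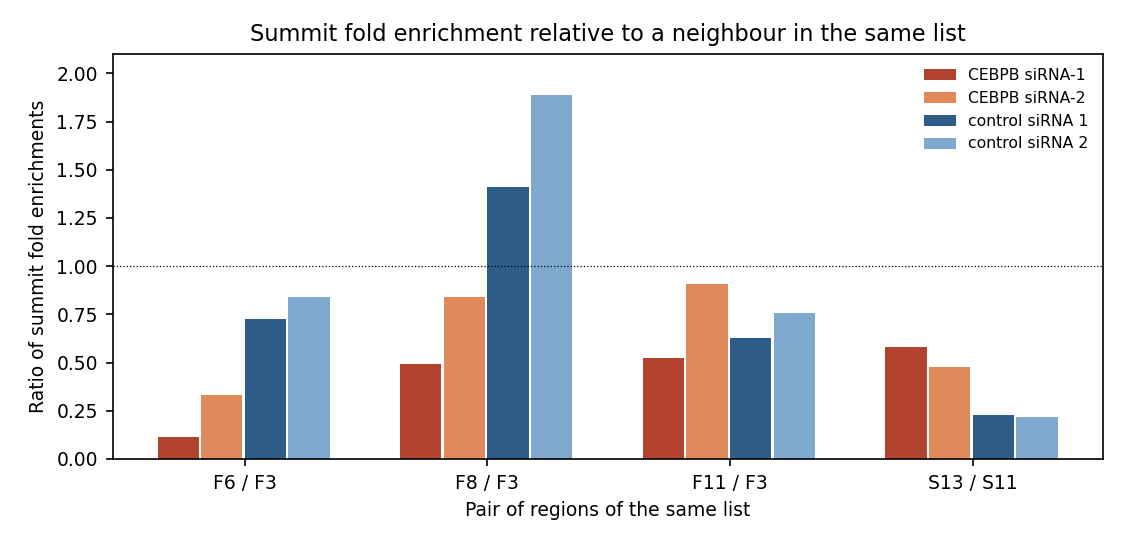
Summit fold enrichment of F6, F8 and F11 divided by that of F3, and of S13 divided by that of S11, each within the same peak list; bars are single libraries. F8 is below F3 with either siRNA (0.492 and 0.84) and above it in both controls (1.41 and 1.89), and S13 is closer to S11 with either siRNA.

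Outside F3, F6, F8 and F11 the fibrinogen window held small calls. A region was counted as lost where both controls had a call and neither siRNA library did. None of the 5 regions called in both controls was lost, where 13.3% of such regions were lost over all chromosomes. The count of lost regions was 4 without control 1, 2 without control 2 and 1 without siRNA-2. F6 was not counted as lost, since it still held short peaks. Among peaks with a −log10 q of 10 or more, 1 region of the window was lost. By single bases, 7192 of the 26698 bases of the window called in both controls (26.9%) were called with neither siRNA, against 12.4% over all chromosomes. Over the gene span it was 6386 of 16733 bases (38.2%). Conversely, 0 bases of the span were called with both siRNAs and in neither control. A further 5 regions of the window were called in 1 library each, all in a control (2 in control 1 and 3 in control 2), with fold enrichments of 2.93 to 4.74. Over all chromosomes, 20360 of 60669 regions were called in 1 library, and how these divide between the groups was not counted. The remaining small regions lay left of the span: F1, of 303 bp, was called with siRNA-2 and in control 1, and F2, of 353 bp, in every library but siRNA-1.

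A single region of the fibrinogen window was gained, that is, called with both siRNAs and in neither control. This region, F12, lay 12 kb right of the gene span, on the side of FGG (chromosome 4, 155545997 to 155548093). It was 1 peak of 2097 bp and 7.54-fold enrichment with siRNA-1, and 1 peak of 914 bp and 6.27-fold enrichment with siRNA-2, with summits 39 bp apart. It was 1 of the 5 regions that both siRNA libraries shared in the window, against gains of 13.6% over all chromosomes. By −log10 q these peaks stood at percentile 63.0 and 42.9 of their lists, and the region was not counted as gained when a −log10 q of 10 or more was required. In all, 914 bases of the window were called with both siRNAs and in neither control, as many as F12 has in the siRNA-2 library. They were 5.75% of the bases called with both siRNAs, against 12.6% over all chromosomes.

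**Figure D4:**
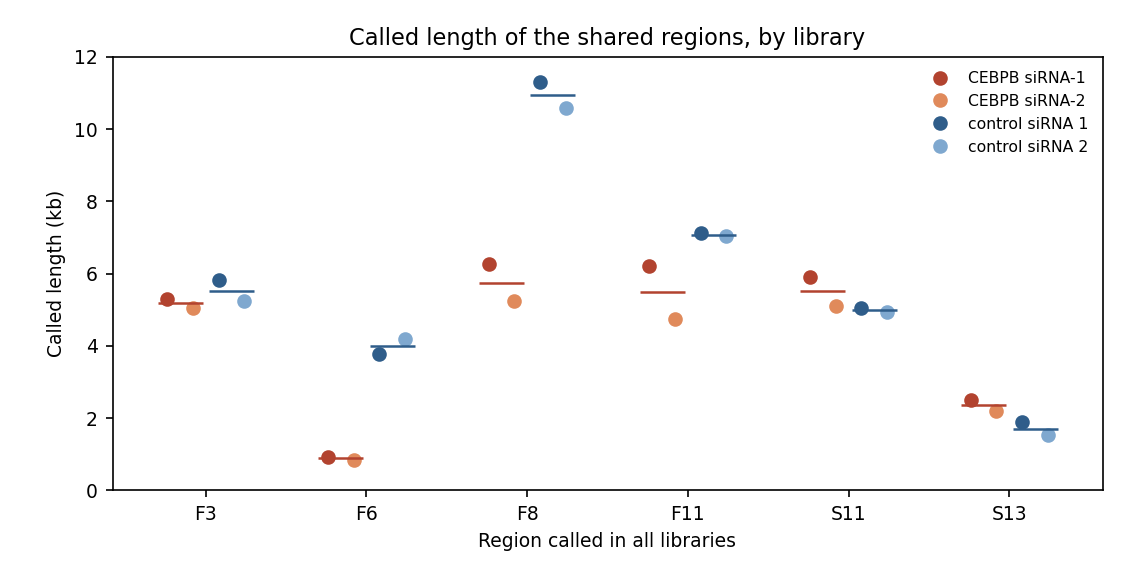
Called length in kb of the 6 regions called in every library, with 1 point per library and a line at the mean of each group (n = 2). The knockdown libraries lie below the controls at F6, F8 and F11, overlap with them at F3, and lie above them at S11 and S13.

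SERPINA1 itself carried no H3K27ac peak in any of the 4 libraries. Over its 14 kb, called length was 0 bp with both siRNAs and 0 bp in both controls, so there was no call to compare. The nearest peak on its left was 21.5 kb away with siRNA-1 and 29.5 kb away with siRNA-2, against 21.5 kb in control 1 and 83.5 kb in control 2. On its right the nearest was 203 kb away with siRNA-1 and 207 kb away with siRNA-2 and in both controls. SERPINA1 and the fibrinogen genes, both counted as acute-phase genes, thus differed in whether any peak was called over them. At unknown depth, a weak mark over SERPINA1 may not have been detectable.

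The SERPINA window around it held more called length with either siRNA. Called length in the window was 13.6 kb in the siRNA-1 library and 9.04 kb in the siRNA-2 library, against 8.92 kb in control 1 and 6.87 kb in control 2. The groups did not overlap, but siRNA-2 and control 1 were nearly equal. The mean difference was 3411.5 bp (exact permutation test, two-sided p = 0.333, the smallest possible), and 1143.5 bp without siRNA-1 and 5679.5 bp without siRNA-2. As a share of the list the window held 0.0193% and 0.0147% after knockdown, against 0.0131% and 0.0111% in controls. Of 4761 tiles of 450 kb, 32.3% were likewise longer in both knockdown libraries, and the log2 ratio of 0.52 in the window was at percentile 80.6 of the tiles, whose median was 0.044. The number of peaks overlapped between the groups, with 12 and 6 after knockdown against 7 and 4 in controls (exact permutation test, two-sided p = 0.667). Their mean difference of 3.5 peaks was 0.5 with siRNA-1 left out and 6.5 with siRNA-2 left out.

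Most of the called length lay in 2 regions far to the right of SERPINA1, S11 and S13, the only regions of the window called in every library. Of the difference of 3411.5 bp, however, these supplied 1157 bp, and S6 and S7, called only with the siRNAs, supplied 1851.5 bp. In RefSeq's order the genes on that side are SERPINA11, SERPINA9, SERPINA12, SERPINA4, SERPINA5 and SERPINA3, which encodes alpha-1 antichymotrypsin, another acute-phase inhibitor, and these regions were not assigned to any of them. The first, S11, lay 207 kb from SERPINA1 (chromosome 14, 95064196 to 95070118). It had 5919 bp called with siRNA-1 and 5110 bp with siRNA-2, against 5060 bp in control 1 and 4930 bp in control 2, so siRNA-2 and control 1 were again close. The difference was 519.5 bp (exact permutation test, two-sided p = 0.333), 115 bp without siRNA-1 and 924 bp without siRNA-2, and the groups overlapped with gaps of 1 kb or less closed (p = 0.667 by the same exact test).

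The second, S13, lay 219 kb from SERPINA1 (chromosome 14, 95075874 to 95078381). It was 1 peak of 2490 bp with siRNA-1 and 1 of 2203 bp with siRNA-2, against 1 peak of 1893 bp in control 1 and 1525 bp in 2 peaks in control 2. The mean was 1.37-fold longer after knockdown, 2346.5 ± 202.9 bp against 1709 ± 260.2 bp in controls (SD, n = 2 each; exact permutation test, two-sided p = 0.333, the smallest possible). The difference of 637.5 bp was 1400 bp among peaks with a −log10 q of 10 or more, where control 2 had no call there. All of the 1525 bases called in both controls were called with both siRNAs, and 446 bases were called with both siRNAs and in neither control. Its summit fold enrichment set against that of S11 was 0.582 in the siRNA-1 list and 0.475 in the siRNA-2 list, against 0.226 in control 1 and 0.22 in control 2. A ratio higher in both knockdown lists was found for 26.9% of neighbouring pairs over all chromosomes, so the separation alone is no result about S13. In the distribution of all regions called in every library, S13 lay at percentile 82.8 by length ratio and S11 at 64.1, both within the bulk.

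**Figure D5:**
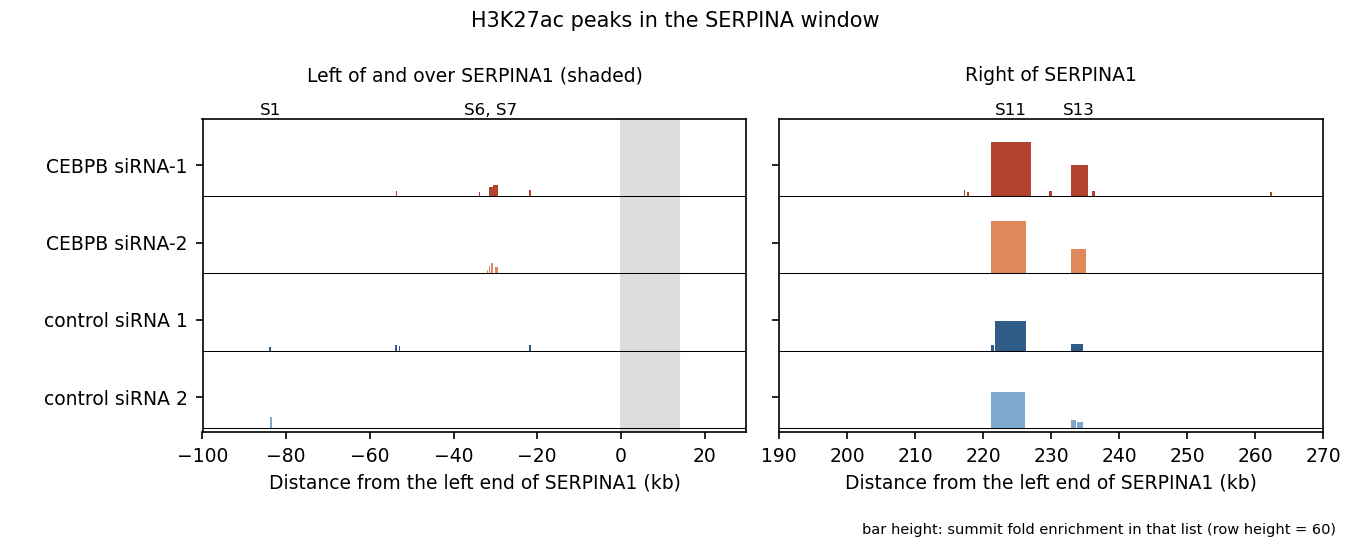
H3K27ac peaks of the SERPINA window in the 4 libraries, by distance in kb from the left end of SERPINA1 (grey, left panel); bar height is the summit fold enrichment in the library's own list. SERPINA1 is empty in every library, S6 and S7 are called only with the siRNAs, and S11 and S13 are the tall regions on the right; the parts of the window not drawn hold no peak.

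The 2 gained regions of the SERPINA window, S6 and S7, were the closest to SERPINA1 that both knockdown libraries shared. S6 lay 30.6 kb to the left of the gene (chromosome 14, 94811358 to 94812389) and S7 29.3 kb to the left (94812548 to 94813709), with 158 bases between them. S6 had 1032 bp called with siRNA-1, at 7.24-fold enrichment, and 829 bp in 2 peaks with siRNA-2, at up to 7.91-fold. S7 had 1162 bp with siRNA-1, at 8.84-fold enrichment, and 680 bp with siRNA-2, at 4.65-fold. Neither control had a peak within 1 kb of them. They were 2 of the 4 regions that both siRNA libraries shared, where 13.6% were gained over all chromosomes. The number of gained regions was 4 with siRNA-1 left out, where the 2 siRNA-2 peaks of S6 count apart, and 8 with siRNA-2 left out. It was 1 among peaks with a −log10 q of 10 or more.

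A single region of the SERPINA window was lost, S1, 83.5 kb left of SERPINA1 (chromosome 14, 94758934 to 94759494). It had no peak with either siRNA, 540 bp in control 1, at 3.19-fold enrichment, and 413 bp in control 2, at 8.69-fold, at percentiles 3.42 and 61.3 of their lists. It was 1 of 3 regions of the window called in both controls, where 13.3% were lost over all chromosomes; without control 2 the count of lost regions was 2. The count was 0 among peaks with a −log10 q of 10 or more, and 0 with the lists cut to equal called length. Of the other regions, 8 were called in 1 library each, 6 of them with siRNA-1, with fold enrichments of 2.61 to 4.69. Over all chromosomes, 20360 of 60669 regions were called in 1 library, and their division by library was not counted. Both S2, of 507 bp, and S8, of 537 bp, were called with siRNA-1 and in control 1. By single bases, 1955 of the 8822 bases called with both siRNAs (22.2%) were called in neither control, and 392 of the 6739 called in both controls (5.82%) with neither siRNA. Over all chromosomes these shares were 12.6% and 12.4%.

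The windows thus went opposite ways in the same libraries. Called length of the fibrinogen window was below both controls with either siRNA, and that of the SERPINA window above. Each direction alone was common over all chromosomes. Of tiles of 200 kb, 27.9% were shorter in both knockdown libraries, and of tiles of 450 kb, 32.3% were longer. No test of the difference between the windows was made, since both rest on the same 4 libraries.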

How the data were processed

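H3K27ac was measured by chromatin immunoprecipitation and single-end sequencing (101 bases, per the labels' protocols) in 4 libraries of A549 cells; the 4 input libraries were not analysed here. BWA 0.7.17, SAMtools 1.7.0, MACS2 2.2.7.1 and hg19 are named, per the submitters' processing notes; the sources used here give neither their options nor whether inputs were the background. Each library has its own deposited peak list. The authors deposited for each peak a score, a linear ratio (fold enrichment) for its summit, and a −log10 p and −log10 q. Depth is unknown, so no interval or floor could be given. The score was 10 times the −log10 q, truncated, in 99.96% of peaks. These values are the authors' own and were used only to describe, rank and filter peaks within a list.

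Overlapping peaks (1 bp or more) of the different lists were joined into regions on chromosomes 1 to 22 and X, with Python 3.11.15 and NumPy 2.4.6. Called length is the number of bases covered by peaks of a list. Lost, gained and kept regions were defined by calls in both libraries of a group, in neither, or in all 4. Group means were compared by exact permutation tests over libraries (two-sided). Counting was tested on simulated peak lists. Genes were named from RefSeq's order on GRCh38.p14, and the start of FGA was placed by its distance from that of FGB in that build. No coordinates were converted. Members, lists and regions were chosen with earlier results of these data known. Regions named are those touching the genes, those lost or gained, and those called in all 4 libraries. Alternatives were a −log10 q of 10 or more, equal called length, the share of each list, stitching within 1 kb, a reciprocal overlap of 50%, no peak within 1 kb, the replicate block and leaving out each library. The planned motif search around summits was not run, and promoters were searched instead. That search, the lengths of single regions under the alternatives, the counts of single bases, the shares over pairs of regions and the tiles were added after seeing the data.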

Additional observations from a re-analysis of the deposited data

How the results depend on the processing

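Every alternative kept the direction of called length in the fibrinogen window, over the fibrinogen genes and in the SERPINA window, and of the mean number of peaks in both windows. SERPINA1 stayed at 0 throughout. In peak number the groups overlapped in the fibrinogen window, however, with short gaps closed, with a −log10 q of 10 or more and at equal called length. No p could pass a threshold at 2 libraries against 2. Without each library in turn, the knockdown minus control difference ranged from -11456.5 to -8058.5 bp in the fibrinogen window, from -10538.5 to -8736.5 bp over the fibrinogen genes, from 1143.5 to 5679.5 bp in the SERPINA window, from 4 to 9 peaks in the fibrinogen window and from 0.5 to 6.5 peaks in the SERPINA window. Counts of regions are small and moved. With a −log10 q of 10 or more, the SERPINA window had 0 lost, 1 gained and 1 kept regions, and the fibrinogen window 1 lost and 0 gained. With a reciprocal overlap of 50% the SERPINA window had 1 gained and 1 kept, and the fibrinogen window 2 lost, 3 gained and 1 kept. There the 2 lost were the control peaks of F6 and F8. The 3 gained were shorter siRNA peaks within F8 that lay under longer peaks of both controls, so they are no newly called places. Equal called length (61.68 Mb) left 0 lost regions in the SERPINA window, where fewer weak peaks remain by construction, and stitching within 1 kb joined its 2 gained regions into 1. Without each library in turn, the SERPINA window had 1 to 2 lost and 2 to 8 gained regions and the fibrinogen window 0 to 4 lost. A region then needs fewer calls, and peaks that the left-out library joined count apart, as 2 siRNA-2 peaks of S6 and 2 control 2 peaks of F11 do. The label numbers do not show shared cultures, and the number 1 minus 2 differences in log2 length had a correlation of 0.064 between the groups over 24133 regions. With the replicate block the differences were -9757.5 bp in the fibrinogen window, -9637.5 bp over its genes and 3411.5 bp in the SERPINA window, and 6.5 and 3.5 peaks (exact sign-flip p = 0.5, the smallest that 2 pairs can give). Within number 1 and number 2 the differences were -8408 and -11107 bp in the fibrinogen window and 4653 and 2170 bp in the SERPINA window. Unknown depth limits what the absence of a peak shows.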

Other observations

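The Jaccard index, the bases called in both of a pair of libraries over those called in either, was 0.659 between the knockdown libraries over the fibrinogen gene span, 0.827 between the controls and 0.428 to 0.525 between a knockdown library and a control. Over all chromosomes these were 0.659 between the knockdown libraries, 0.765 between the controls and 0.574 to 0.613 across. In the SERPINA window the index was 0.64 between the knockdown libraries and 0.745 between the controls, and 0.461 to 0.676 across, so there siRNA-2 and control 2 (0.676) shared more called bases than the knockdown libraries did.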
